A study of Mus musculus with 7 samples.

Results

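The regions described here are the spans of 4 mouse genes that act in activity-dependent plasticity of hippocampal neurons: Bdnf, Ntrk2, Camk2a and Ppp3ca. The members are the 500 bp bins of the deposited count table, on build mm9, whose start lies inside a fixed interval for each gene. The intervals hold 1430 of the 5451548 bins in the table. The Bdnf span is chr2:109514001-109568000 (54 kb, 108 bins), the Ntrk2 span is chr13:58907001-59236000 (329 kb, 658 bins), the Camk2a span is chr18:61085001-61149000 (64 kb, 128 bins) and the Ppp3ca span is chr3:136333001-136601000 (268 kb, 536 bins). Each span is 1.00 to 1.03 times as long as its gene in RefSeq on the later build GRCm38.p6. In that annotation the nearest protein-coding neighbours are Kif18a and Lin7c for Bdnf, Slc28a3 and Agtpbp1 for Ntrk2, Arsi and Slc6a7 for Camk2a, and Bank1 and Emcn for Ppp3ca. No mm9 annotation was used here, so exons, introns, untranslated regions and other genes of the pathway were not placed on the bins.

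The study measured 5-hydroxymethylcytosine (5hmC) by antibody enrichment and sequencing of genomic DNA from mouse hippocampus, in 3 wild-type (WT) libraries and 4 Tet2 CKO libraries, and its design text names the comparison of the genotypes. All 7 libraries come from unstressed C57BL/6 mice. The driver of the conditional deletion, the deleted exons, the age and the sex of the animals are not given in the sources used here, and the labels do not tie libraries to animals. The spread behind every p-value is thus that among these 7 libraries, and it may be technical.

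TET enzymes, of which Tet2 encodes 1, oxidise 5-methylcytosine to 5hmC, a mark that is abundant in neurons and often lies over the bodies of transcribed genes. BDNF is a secreted neurotrophin, and Ntrk2 encodes TrkB, the receptor tyrosine kinase that binds it and signals to synapses. Camk2a encodes the alpha subunit of calcium/calmodulin-dependent protein kinase II, which is needed for long-term potentiation. Ppp3ca encodes the catalytic A-alpha subunit of calcineurin, which is a calcium-activated phosphatase and not a kinase, and which acts in long-term depression.

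In mammals 5hmC is made mainly at cytosines followed by guanine, so the density of CG dinucleotides limits how much of the mark a stretch can carry. RefSeq promoter windows on GRCm38.p6 (300 bases around an annotated start) were at hand for Bdnf, which starts from several alternative first exons, with 7 windows, and for Ntrk2, with 1. The motif CG reads the same on both strands and is in 94.6% of all 32851 promoter windows in the table, at a median of 7 CG per window. The 7 Bdnf windows hold 11, 7, 12, 10, 13, 2 and 8 CG in order along the plus strand. The Bdnf windows with the most and the fewest CG and the Ntrk2 window are shown to let their CG content be compared, with each CG in capitals. The Bdnf window with 13 CG is chr2:109694159-109694458, that with 2 CG is chr2:109709133-109709432, and the Ntrk2 window is chr13:58806319-58806618, all on the plus strand of GRCm38.p6.
Bdnf promoter 5: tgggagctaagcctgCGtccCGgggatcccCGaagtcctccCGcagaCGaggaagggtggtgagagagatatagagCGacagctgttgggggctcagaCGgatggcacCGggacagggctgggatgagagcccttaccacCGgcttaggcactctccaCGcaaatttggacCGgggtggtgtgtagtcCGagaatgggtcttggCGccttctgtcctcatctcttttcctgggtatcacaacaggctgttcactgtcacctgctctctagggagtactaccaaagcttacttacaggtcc
Bdnf promoter 6: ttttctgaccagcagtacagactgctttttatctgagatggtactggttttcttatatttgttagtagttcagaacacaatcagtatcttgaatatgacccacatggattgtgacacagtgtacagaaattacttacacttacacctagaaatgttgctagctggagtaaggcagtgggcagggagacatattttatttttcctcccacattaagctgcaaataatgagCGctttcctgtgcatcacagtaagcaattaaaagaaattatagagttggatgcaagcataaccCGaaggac
Ntrk2 promoter: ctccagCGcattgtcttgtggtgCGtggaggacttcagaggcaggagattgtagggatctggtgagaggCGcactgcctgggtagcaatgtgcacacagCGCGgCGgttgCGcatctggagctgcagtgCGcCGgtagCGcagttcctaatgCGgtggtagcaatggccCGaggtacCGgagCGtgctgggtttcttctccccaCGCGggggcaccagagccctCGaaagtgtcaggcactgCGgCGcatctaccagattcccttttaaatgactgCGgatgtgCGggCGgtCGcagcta
The Ntrk2 window holds 23 CG at 61.3% G and C, and 78.5% of all windows hold fewer. The Bdnf windows above hold 58.0% and 38.7% G and C, with fewer CG in 62.1% and 14.1% of all windows. These positions belong to another build than the counts, so none of these windows was matched to a bin.

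The libraries held 26134505 to 49414761 reads. Between 29.8% and 74.1% of these lay in 375 bins with a mean of more than 100 reads, none of them inside the 4 spans, and these high-count bins were left out. The remaining autosomal reads numbered 11146988 to 28885986 per library. They gave 2.43 to 3.15 reads per covered bin (a bin with a read in any library, outside the high-count bins) in 6 libraries and 6.30 in WT replicate 1. Levels below are relative densities: reads per covered bin of a region divided by the same over all autosomes, so that 1 is the autosomal mean of that library. Tet2 CKO replicates 2 and 3 stood apart. Across autosomal 10 kb windows, which are not independent, r between this pair was 0.83, against −0.04 and 0.01 with WT replicate 1 and 0.26 to 0.37 with the remaining libraries. Among the 5 other libraries r was 0.66 to 0.70. They also had the highest shares of high-count reads, 69.8% and 74.1%, against 29.8% to 54.3% in the others. The fitted differences below are given with and without this pair for the spans, their ratios to flanks and the windows chosen by density or p.

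Bdnf, the gene of the ligand, lay below the autosomal mean in every library. Its span held 348, 178 and 185 reads in WT replicates 1 to 3 and 173, 109, 112 and 193 reads in Tet2 CKO replicates 1 to 4. Its relative density was 0.553, 0.670 and 0.588 in WT and 0.632, 0.449, 0.426 and 0.635 in Tet2 CKO. The 2 lowest values were those of Tet2 CKO replicates 2 and 3, while Tet2 CKO replicates 1 and 4 lay inside the WT range, so the groups overlapped. The WT mean was 0.603 ± 0.0601 (SD, n = 3), and the Tet2 CKO mean was 0.535 ± 0.114 (SD, n = 4). Among 44309 autosomal tiles of the same length, the Bdnf density lay between percentiles 9.12 and 37.3 in the 7 libraries, so the gene was below the median tile of its length in each of them.

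Along the Bdnf span, the full 10 kb window with the highest mean density lay 26 to 36 kb from its start, with 0.577, 0.950 and 0.886 in WT and 0.692, 1.10, 0.820 and 0.969 in Tet2 CKO. The window that follows it, 36 to 46 kb in, had the lowest, with 0.326, 0.334 and 0.265 in WT and 0.223, 0.434, 0.549 and 0.183 in Tet2 CKO. In both windows the groups overlapped, and the log2 difference of Tet2 CKO from WT was 0.16 in each (edgeR adjusted p = 0.873 and 0.909, as described below). Without Tet2 CKO replicates 2 and 3 it was 0.062 and −0.60. The window 16 to 26 kb in had the smallest p toward lower values, with 0.251, 0.950 and 0.485 in WT and 0.385, 0.0866, 0.220 and 0.485 in Tet2 CKO (log2 −0.89, SE 0.62, edgeR adjusted p = 0.536). It was −0.34 without Tet2 CKO replicates 2 and 3 and −0.29 without WT replicate 2. Of the shorter pieces at the edges of the span, the last 8 kb had 1.51, 0.917 and 1.13 in WT and 1.07, 0.720, 0.356 and 1.46 in Tet2 CKO, the highest mean over the WT libraries of any window or piece of the gene.

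A single bin of the window 26 to 36 kb in, chr2:109548001-109548500, was picked out after its values were seen. It held most of the window's reads in Tet2 CKO replicates 1 to 3 and a smaller part in Tet2 CKO replicate 4 and WT. The window held 69, 48 and 53 reads in WT and 36, 51, 41 and 56 in Tet2 CKO. The bin held 14, 13 and 8 reads in WT and 24, 34, 33 and 21 in Tet2 CKO. Its relative density was 2.22, 4.89 and 2.54 against 8.77, 14.0, 12.5 and 6.91. Every Tet2 CKO library was above every WT library in this bin, as in 6.93% of the 226387 autosomal bins with a mean of at least 10 reads (4.35% had every Tet2 CKO library below). The bin carried 31.2% and 29.5% of all Bdnf reads in Tet2 CKO replicates 2 and 3. The share was 13.9% and 10.9% in Tet2 CKO replicates 1 and 4, and 4.02% to 7.30% in WT. The next richest Bdnf bin, 49.5 kb in, held 66, 6 and 14 reads in WT and 13, 0, 2 and 8 in Tet2 CKO, so WT replicate 1 alone held most of its reads. Outside the richest bin, the Bdnf density was 0.536, 0.627 and 0.568 in WT and 0.550, 0.312, 0.303 and 0.571 in Tet2 CKO, which set Tet2 CKO replicates 2 and 3 further apart from the rest.

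**Figure D1:**
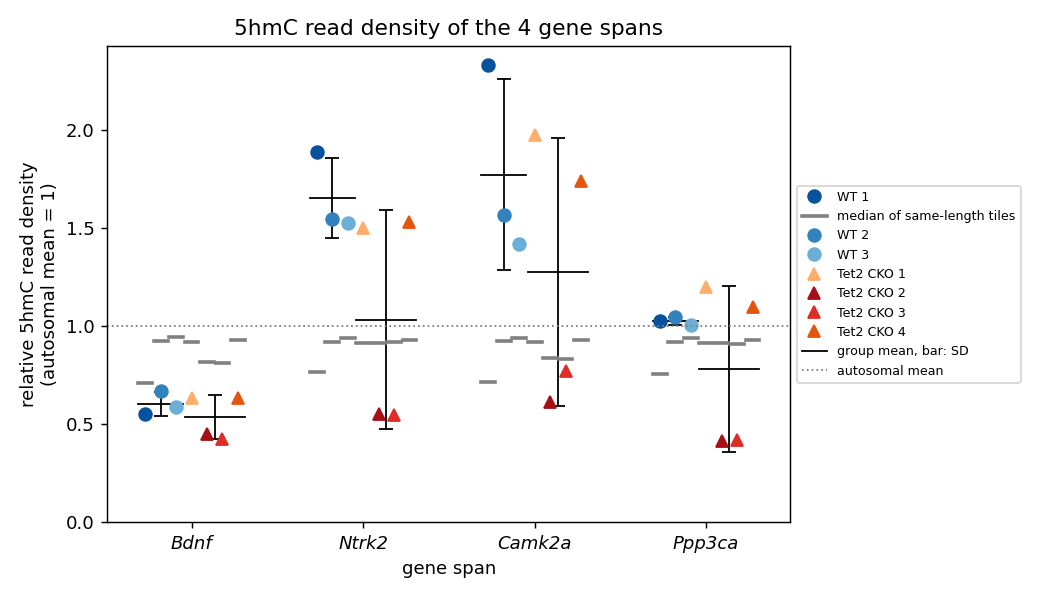
Relative density of 5hmC reads (autosomal mean = 1) over each of the 4 gene spans in every library, 1 point per library, with the mean and SD of each genotype and, as grey ticks, the median of autosomal tiles of the same length in that library. Tet2 CKO replicates 2 and 3 are the lowest 2 points for each gene, and the other Tet2 CKO libraries lie within or near the WT range.

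Ntrk2, the gene of the receptor, carried more 5hmC reads than the autosomal mean in 5 libraries and fewer in 2. The span held 7762, 2681 and 3138 reads in WT and 2683, 875, 939 and 3040 in Tet2 CKO. Its relative density was 1.89, 1.54 and 1.53 in WT (mean 1.65 ± 0.203, SD, n = 3) and 1.50, 0.551, 0.547 and 1.53 in Tet2 CKO (mean 1.03 ± 0.559, SD, n = 4). Tet2 CKO replicates 1 and 4 thus stood beside WT replicates 2 and 3, while replicates 2 and 3 stood far below them. Among 7286 tiles of 329 kb, the gene lay between percentiles 89.7 and 95.6 in those 5 libraries and at percentiles 8.89 and 7.82 in Tet2 CKO replicates 2 and 3. A gene body among the richest of its length in 5 libraries was thus among the poorest in 2.

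The highest full 10 kb window of Ntrk2 lay near its 3′ end, 313 to 323 kb from the start of the span, at chr13:59220001-59230000. Its relative density was 3.92, 3.57 and 3.26 in WT and 2.54, 2.02, 1.58 and 2.78 in Tet2 CKO. All 4 Tet2 CKO libraries were below all 3 WT libraries, as in 5.34% of all autosomal windows tested. The fitted log2 difference was −0.69 (SE 0.52), with an adjusted p of 0.561 in edgeR's quasi-likelihood test, and −0.43 without Tet2 CKO replicates 2 and 3. The last 6 kb of the span, next to it, gave 2.59, 1.47 and 1.69 in WT and 1.22, 0.446, 0.380 and 0.959 in Tet2 CKO, again without overlap. It had the smallest p toward lower values of the span's windows (log2 −1.35, SE 0.49, unadjusted p = 0.0131, adjusted p = 0.503 in edgeR). Without Tet2 CKO replicates 2 and 3 the difference was −0.83, and −0.54 without WT replicate 1 as well. The lowest full window, 203 to 213 kb in, gave 1.20, 0.715 and 1.03 in WT and 1.11, 0.288, 0.323 and 1.00 in Tet2 CKO, a log2 difference of −0.52 with all libraries and 0.10 without Tet2 CKO replicates 2 and 3.

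In the window 123 to 133 kb in, picked out after its values were seen, Tet2 CKO replicates 1 and 4 were low as well. The densities were 1.48, 1.96 and 1.33 in WT and 0.932, 0.555, 0.913 and 0.822 in Tet2 CKO (log2 −0.98, SE 0.43, unadjusted p = 0.0346, adjusted p = 0.503 in edgeR). The window 213 to 223 kb in, likewise picked out, had 2.45, 1.45 and 1.46 in WT and 1.28, 0.844, 0.589 and 0.987 in Tet2 CKO (log2 −0.95, unadjusted p = 0.0497, adjusted p = 0.503 in edgeR). In both, the highest Tet2 CKO library lay below the lowest WT library, as in 5.34% of all 238998 windows tested.

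A single Ntrk2 window ran the other way. At 293 to 303 kb from the start (chr13:59200001-59210000) the relative density was 1.27, 1.30 and 2.18 in WT and 1.59, 3.66, 3.52 and 1.15 in Tet2 CKO. Here Tet2 CKO replicates 2 and 3 were the 2 highest libraries, in a gene where they were the 2 lowest in 32 of 34 windows, and the other Tet2 CKO libraries lay inside or just below the WT range. The log2 difference was 0.65 (SE 0.56, edgeR adjusted p = 0.597), and −0.20 without Tet2 CKO replicates 2 and 3. The reads of this pair were not in 1 bin: from chr13:59203001 to 59209000, Tet2 CKO replicate 2 had 6 to 25 per bin and replicate 3 had 6 to 31. In the same bins WT replicate 3 had 5 to 14 reads and the remaining libraries 0 to 17. The pair was not highest in every bin. Tet2 CKO replicate 1 held 17 reads at chr13:59204001, against 11 and 9 in replicates 2 and 3.

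The first 2 kb of the span, which by the plus-strand promoter is the 5′ end of Ntrk2, held few reads: 39, 15 and 22 in WT and 6, 0, 0 and 14 in Tet2 CKO. Their density relative to the rest of the span was 0.819, 0.913 and 1.15 in WT and 0.364, 0, 0 and 0.751 in Tet2 CKO. The lowest WT value was 0.819 and the highest Tet2 CKO value 0.751. No test was made on these 2 kb alone, and the share of 2 kb pieces that separate across the genome was not counted. The first 3 kb, tested as a window, held 39, 15 and 22 reads in WT and 8, 0, 0 and 14 in Tet2 CKO. Their log2 difference was the lowest of the span's windows (−1.67, SE 0.86, unadjusted p = 0.0664, adjusted p = 0.503 in edgeR). The groups did not overlap there, as in 5.34% of all windows tested, and the counts were low. In Bdnf, Camk2a and Ppp3ca the groups overlapped in the ratio of the first 2 kb to the rest. The Tet2 CKO mean was below the WT mean in Bdnf and above it in Camk2a and Ppp3ca. The first 2 kb of Bdnf held 22 reads over all 7 libraries, and were below the rest of that span in 6 of 7.

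**Figure D2:**
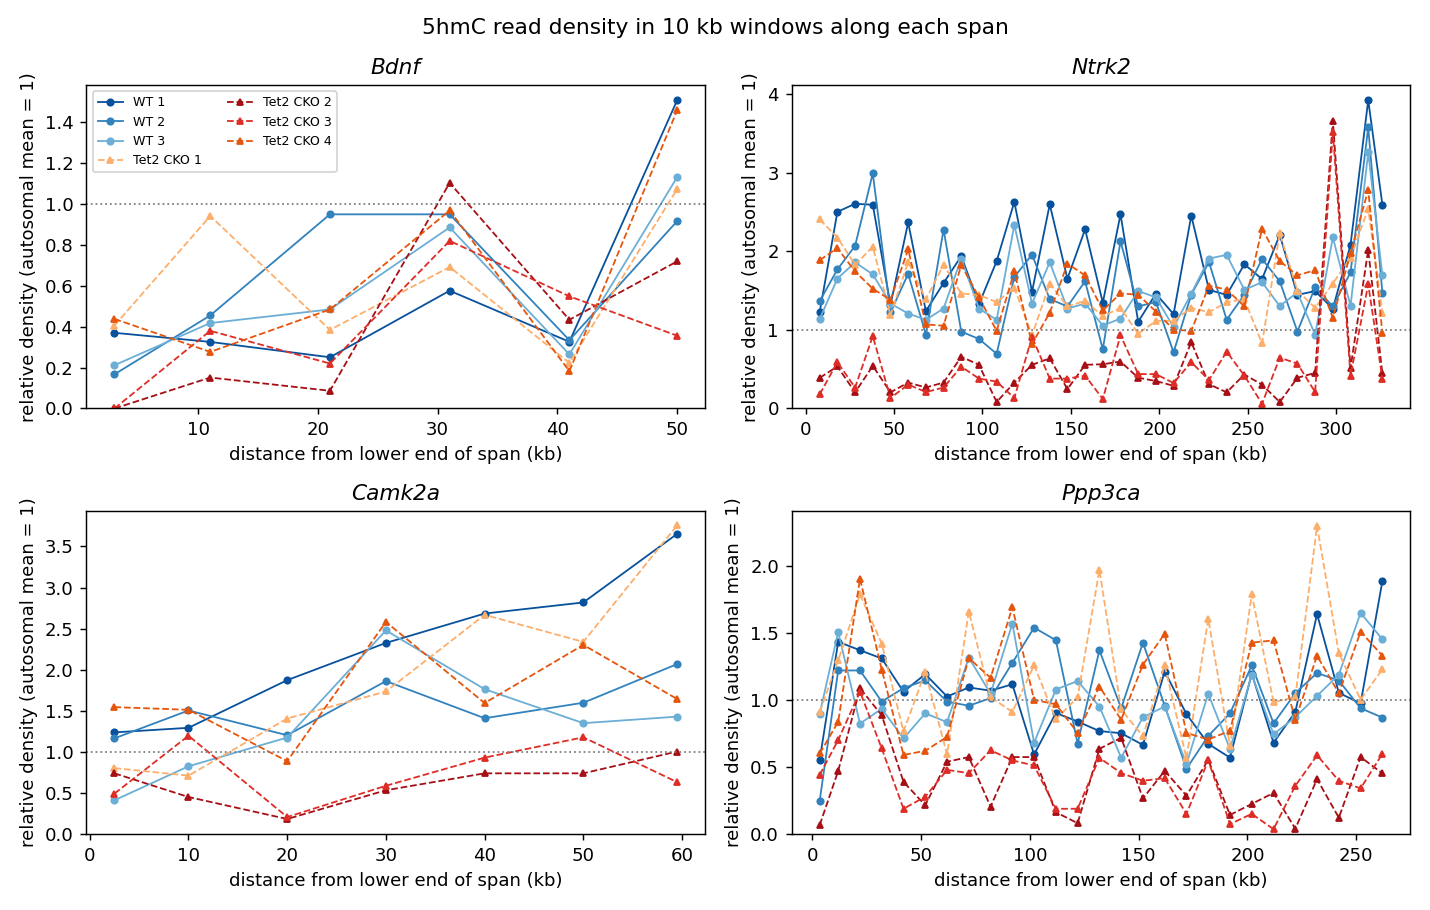
Relative density (vertical axis, autosomal mean = 1) of each 10 kb window against its distance from the start of the span in kb, for each gene, 1 line per library. Windows under 8 bins are not drawn, and the peak near the 3′ end of Ntrk2 and the low course of Tet2 CKO replicates 2 and 3 can be seen.

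Camk2a, the gene of the kinase subunit, had the highest relative density of the 4 genes in 6 of 7 libraries. Its span held 1877, 533 and 572 reads in WT and 692, 191, 259 and 677 in Tet2 CKO. The relative density was 2.33, 1.57 and 1.42 in WT (mean 1.77 ± 0.488, SD, n = 3) and 1.98, 0.614, 0.769 and 1.74 in Tet2 CKO (mean 1.27 ± 0.683, SD, n = 4). Tet2 CKO replicates 1 and 4 exceeded the lower 2 WT libraries. The remaining Tet2 CKO pair was below all other libraries. Among 37398 tiles of its length, the gene lay between percentiles 89.4 and 98.1 in 5 libraries, and at 29.6 and 45.1 in Tet2 CKO replicates 2 and 3.

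The highest full window of Camk2a, 45 to 55 kb in (chr18:61130001-61140000), had a density of 2.82, 1.60 and 1.35 in WT and 2.34, 0.741, 1.18 and 2.30 in Tet2 CKO. The log2 difference was −0.23, and 0.26 without Tet2 CKO replicates 2 and 3. The window 15 to 25 kb in (chr18:61100001-61110000) had both the lowest mean density and the smallest p toward lower values, with 1.87, 1.20 and 1.18 in WT and 1.41, 0.185, 0.209 and 0.888 in Tet2 CKO. Its log2 difference was −1.07 (SE 0.59, edgeR adjusted p = 0.503), and it rested on 9 and 11 reads in Tet2 CKO replicates 2 and 3. Without these 2 libraries it was −0.32, without WT replicate 1 as well −0.056, and without Tet2 CKO replicate 1 alone −1.71. With the share of high-count reads as a covariate it was −0.22. The groups overlapped in both windows. No window of Camk2a had a log2 difference above 0, the nearest being −0.07 in the first 5 kb.

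Ppp3ca, the gene of the phosphatase subunit, lay close to the autosomal mean in 5 libraries. The span held 3417, 1471 and 1679 reads in WT and 1736, 532, 587 and 1766 in Tet2 CKO. The relative density was 1.02, 1.04 and 1.01 in WT (mean 1.02 ± 0.0188, SD, n = 3) and 1.20, 0.413, 0.421 and 1.10 in Tet2 CKO (mean 0.782 ± 0.423, SD, n = 4). The 3 WT values lay closest together of any gene, Tet2 CKO replicates 1 and 4 lay above all of them, and replicates 2 and 3 lay below, so that the Tet2 CKO libraries fell on both sides of WT. Its percentile among 8935 tiles was 59.2 to 75.9 in 5 libraries and 1.57 and 1.34 in Tet2 CKO replicates 2 and 3, which are the lowest ranks of the 4 genes.

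The highest full window of Ppp3ca, 17 to 27 kb in (chr3:136350001-136360000), had a density of 1.37, 1.22 and 0.826 in WT and 1.79, 1.09, 1.06 and 1.91 in Tet2 CKO. The lowest, 167 to 177 kb in, had 0.897, 0.489 and 0.524 in WT and 0.566, 0.288, 0.152 and 0.756 in Tet2 CKO. The window with the smallest p toward lower values, 37 to 47 kb in (chr3:136370001-136380000), had 1.06, 1.09 and 0.715 in WT and 0.767, 0.391, 0.190 and 0.592 in Tet2 CKO (log2 −0.97, SE 0.49, edgeR adjusted p = 0.503). In these 3 windows, in that order, the log2 difference went from 0.36, −0.53 and −0.97 to 0.69, 0.037 and −0.50 without Tet2 CKO replicates 2 and 3. The genotypes overlapped in all 3 windows. In the highest window WT replicate 3, not Tet2 CKO replicate 2 or 3, had the lowest density.

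Set side by side, per covered bin, the genes ran from Camk2a through Ntrk2 and Ppp3ca down to Bdnf in 4 libraries, the first 2 WT replicates and Tet2 CKO replicates 1 and 4. Ntrk2 and Camk2a changed places in WT replicate 3, at 1.53 and 1.42. In Tet2 CKO replicates 2 and 3, Bdnf stood above Ppp3ca, at 0.449 against 0.413 and at 0.426 against 0.421. The highest gene was 2.34 to 4.21 times the lowest in the 5 other libraries and 1.49 and 1.83 times in Tet2 CKO replicates 2 and 3. The neighbours Camk2a and Ntrk2 overlapped in their WT ranges (1.42 to 2.33 and 1.53 to 1.89), while Ppp3ca and Bdnf did not overlap there. No correlation between genes is given, because the libraries fall into separate clusters.

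Between genotypes, no span differed beyond the spread of the libraries. In edgeR's quasi-likelihood test, fitted for each span among all tiles of its length with Benjamini-Hochberg adjustment, the log2 difference of Tet2 CKO from WT was −0.17 (SE 0.26, adjusted p = 0.652) for Bdnf, −0.68 (SE 0.42, adjusted p = 0.272) for Ntrk2, −0.48 (SE 0.44, adjusted p = 0.451) for Camk2a and −0.39 (SE 0.40, adjusted p = 0.440) for Ppp3ca. The test called 0% of the tiles of any of these lengths. At an unadjusted p under 0.05 it found 1.65%, 0.288%, 1.34% and 0.301% of the tiles lower in Tet2 CKO and 11%, 8.28%, 11% and 8.96% higher, for the lengths of Bdnf, Ntrk2, Camk2a and Ppp3ca. The medians of all tiles were 0.02, 0.06, 0.02 and 0.06, and the Ntrk2 difference stood at percentile 5.00 of its tiles, that of Camk2a at percentile 21.5, that of Ppp3ca at percentile 23.9 and that of Bdnf at percentile 40.4. The genotypes overlapped in all 4 spans. Of the tiles of these lengths, 4.91%, 4.15%, 4.81% and 4.18% separated with Tet2 CKO below WT throughout, and 5.22%, 4.29%, 5.3% and 4.36% separated with Tet2 CKO above.

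The 4 values depended on which libraries were fitted. Without Tet2 CKO replicates 2 and 3, the log2 differences were 0.07 for Bdnf, −0.13 for Ntrk2, 0.07 for Camk2a and 0.16 for Ppp3ca, and without WT replicate 1 as well they were 0.01, −0.02, 0.32 and 0.16. The adjusted p in these fits was 0.967 or above. In the latter fit Camk2a and Ppp3ca stood at percentiles 96.4 and 97.1 of their tiles (unadjusted p = 0.0267 and 0.0424 in edgeR). Bdnf and Ntrk2 stood at percentiles 53.6 and 43.3. With the share of high-count reads as a covariate the differences were −0.020 for Bdnf, 0.19 for Camk2a and 0.072 for Ppp3ca. Ntrk2 was then at −0.12 (SE 0.22, unadjusted p = 0.607 in edgeR). Leaving out Tet2 CKO replicate 2 or 3 alone left −0.09 and −0.07 for Bdnf, −0.47 for Ntrk2 both times, −0.25 and −0.30 for Camk2a and −0.18 both times for Ppp3ca. Leaving out Tet2 CKO replicate 1 gave −0.92 for Ntrk2, −0.77 for Camk2a and −0.67 for Ppp3ca, and leaving out replicate 4 gave −0.93, −0.66 and −0.60. Without its richest bin, Bdnf had a difference of −0.41 (adjusted p = 0.382).

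Replicate numbers 1 to 3 are shared by the genotypes, and with that number as a block in edgeR, 3 of the 4 genes passed the threshold. Ntrk2 was at −1.10 (SE 0.25, edgeR adjusted p = 0.00478), Camk2a at −0.81 (adjusted p = 0.0175), Ppp3ca at −0.78 (adjusted p = 0.0409) and Bdnf at −0.28 (adjusted p = 0.411). In the same fits, 33.1%, 26.4%, 31.9% and 25.1% of the tiles of the lengths of Ntrk2, Camk2a, Ppp3ca and Bdnf were also called lower, and 41%, 29.9%, 40.4% and 27.8% higher, so a call in this fit was common across the genome. Tet2 CKO replicate 4 has no WT partner and did not inform that estimate, so it rested on 3 Tet2 CKO libraries, of which replicates 2 and 3 are 2.

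**Figure D3:**
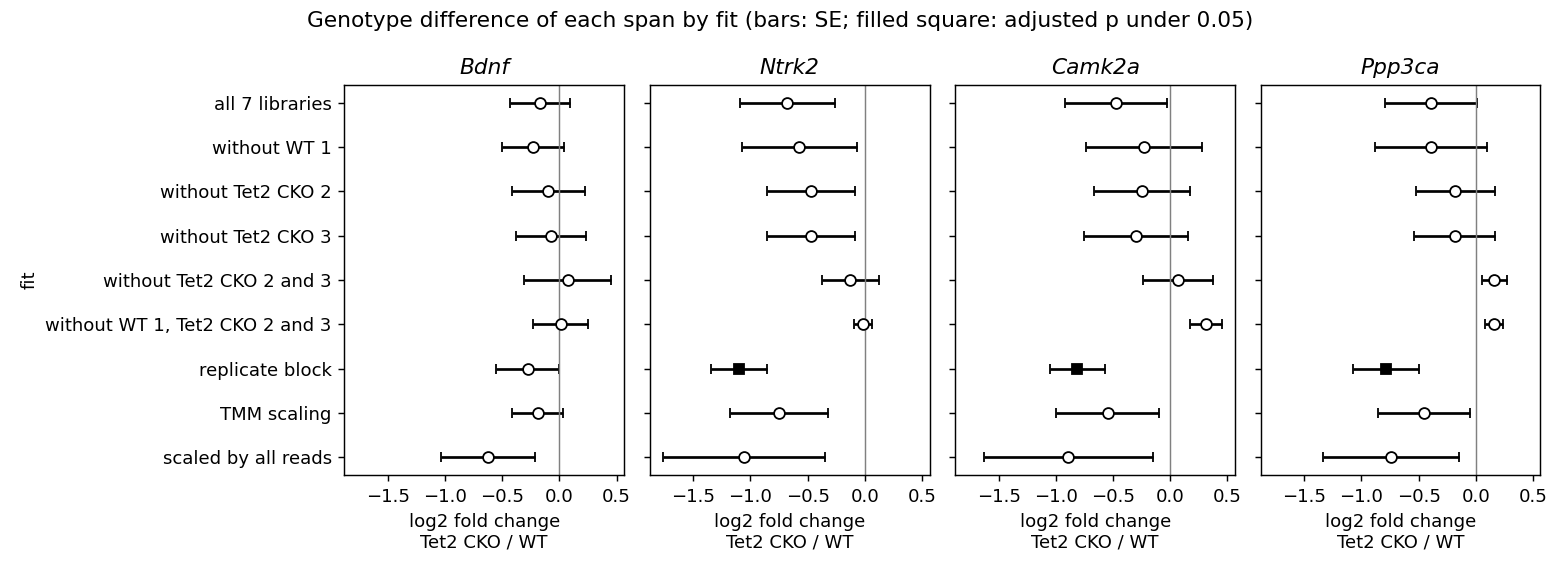
Log2 difference of Tet2 CKO from WT for each span in 9 fits (rows), with bars for the SE and filled squares for an adjusted p under 0.05. Points without Tet2 CKO replicates 2 and 3 lie between −0.13 and 0.16, and without WT replicate 1 as well between −0.02 and 0.32. The filled squares are those of Ntrk2, Camk2a and Ppp3ca with the replicate block.

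In 10 kb windows, 73 of 75 windows of the 4 spans passed the filter of a mean of at least 10 reads. None of the 73 was past an adjusted p of 0.05 in edgeR's test, as was 0% of the 238998 windows tested. DESeq2 with a local trend called 0 of 73, against 28 of all 238998 windows. With its default trend it gave no adjusted p to 71 of the 73. At an unadjusted p under 0.05, 3 of 73 (4.11%) were lower in Tet2 CKO, the 3 Ntrk2 windows described above, against 3.36% of all windows, and 0 were higher, against 5.79%. DESeq2 with a local trend had 9 lower (12.3%) and 0 higher at an unadjusted p under 0.05, against 6.39% and 10.6% of all windows. In 9 windows (12.3%), 8 in Ntrk2 and 1 in Ppp3ca, all Tet2 CKO libraries were below all WT libraries, against 5.34% of all windows, and in 0 they were above, against 4.11%. Leaving out Tet2 CKO replicate 1 or 4 left 16 and 11 windows lower at an unadjusted p under 0.05, and the share of all windows was higher too, at 8.77% and 7.98%. Leaving out WT replicate 1 left 0, against 1.13% of all windows. Leaving out WT replicate 2, Tet2 CKO replicate 2 or both Tet2 CKO replicates 2 and 3 left 1, against 1.95%, 1.29% and 1.17%. Without that pair, 10 of 73 windows had all remaining Tet2 CKO libraries below WT and 7 above, against 7.25% and 10.7% of all windows. With 5 libraries groups separate more easily than with 7.

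The window medians differed by gene. The median log2 difference was −0.74 over 34 windows of Ntrk2, 33 of them below 0, −0.46 over 27 of Ppp3ca, 24 below 0, −0.40 over 7 of Camk2a, all below 0, and 0.14 over 5 of Bdnf, 2 below 0. Over all windows the median was −0.09, with 54.4% below 0. Windows of 1 gene share libraries and neighbouring DNA and are not replicates. Tet2 CKO replicates 2 and 3 were the 2 lowest libraries in 63 of 73 windows, against 34.4% of all windows, and the 2 highest in 2 of 73, against 20.4%. Over all 73 windows the median was −0.56, and 0.03 without Tet2 CKO replicates 2 and 3. With the replicate number as a block, 14 of 73 windows were called, all lower, against 8.28% of all windows called lower and 8.13% higher. They included the last 6 kb of Ntrk2 (log2 −1.62, adjusted p = 0.0332) and the lowest window of Camk2a (log2 −1.74, adjusted p = 0.0313), which without the block and without Tet2 CKO replicates 2 and 3 stood at −0.83 and −0.32.

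**Figure D4:**
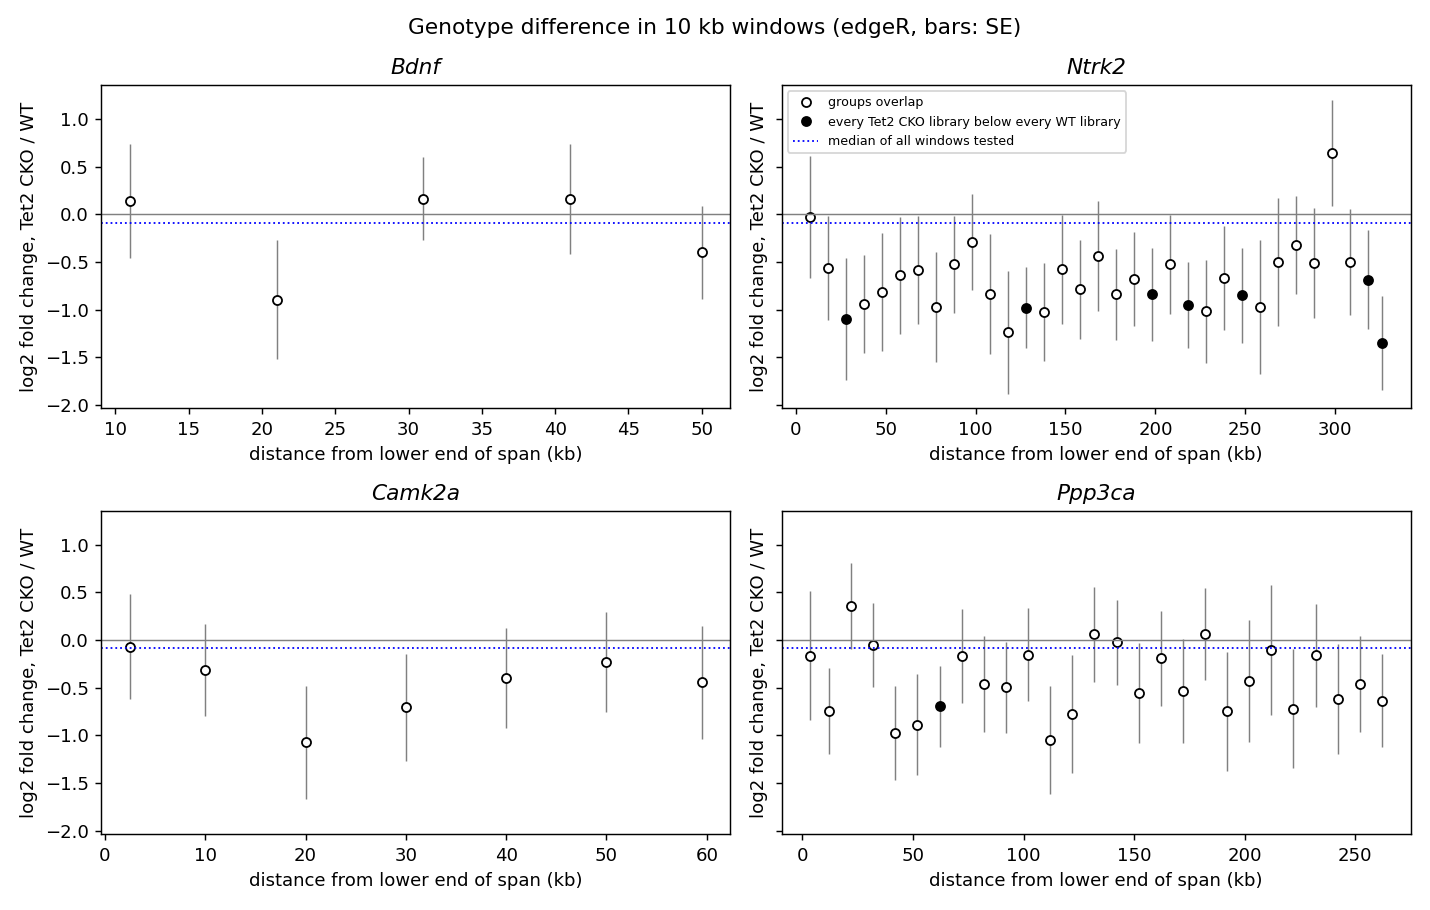
Log2 difference of Tet2 CKO from WT for each tested 10 kb window of at least 8 bins, against kb from the span start. Bars are standard errors, and points are filled where the genotypes separate with Tet2 CKO lower. The first 3 kb of Ntrk2 (6 bins, log2 −1.67), which also separate in this way, are not drawn. A dotted line marks the median of all windows. Most windows of Ntrk2, Camk2a and Ppp3ca lie below 0, and no window is past the threshold.

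A ratio of each span to its own flanks, 1 stretch of the same length on each side, needs no scaling between libraries. Bdnf stood at 1.19, 0.975 and 0.823 times its flanks in WT and at 0.876, 0.430, 0.432 and 0.780 in Tet2 CKO. The log2 difference between the genotypes was −0.72 (p = 0.143 in a two-sided exact permutation test over all 35 splits), and the groups overlapped. It was −0.25 without Tet2 CKO replicates 2 and 3. Its upper flank had a density of 0.436, 0.559 and 0.682 in WT and 0.710, 1.22, 0.949 and 0.884 in Tet2 CKO. As noted above, 5.22% of tiles of this length separated in this direction. The lower flank had 0.493, 0.815 and 0.747 in WT and 0.734, 0.867, 1.02 and 0.744 in Tet2 CKO, with overlap. The ratio depends on both flanks, which were not tested on their own.

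Ntrk2 was at 1.18, 1.17 and 1.29 times its flanks in WT and at 1.16, 0.925, 0.847 and 1.29 in Tet2 CKO. The log2 difference was −0.22 (exact permutation p = 0.286) and was 0.01 without Tet2 CKO replicates 2 and 3. The flanks of Ntrk2 were low in those 2 libraries too, at 0.632 and 0.674 below it and 0.561 and 0.618 above it, against 1.14 to 1.65 in the others.

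Camk2a was the gene whose genotypes did not overlap in this ratio. It was at 0.919, 1.01 and 0.875 times its flanks in WT and at 1.16, 1.19, 1.02 and 1.11 in Tet2 CKO, so the lowest Tet2 CKO library (1.02) was just above the highest WT library (1.01). Of the 37162 tiles of this length with both flanks, 4.23% were higher in this way and 4.74% lower. The log2 difference was 0.26 (exact permutation p = 0.0571, where the smallest p the design allows is 0.0286). With flanks of 50 kb it was 0.32, at that smallest p, and without Tet2 CKO replicates 2 and 3 it was 0.28 (p = 0.1, exact permutation, the smallest that 3 against 2 allows). The flanks of Camk2a were themselves low in those 2 libraries, at 0.604 and 0.891 below the gene and 0.431 and 0.612 above it, against 1.44 to 2.64 in the others.

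Ppp3ca was at 2.07, 1.31 and 1.29 times its flanks in WT and at 1.56, 0.447, 0.450 and 1.35 in Tet2 CKO (log2 difference −0.91, exact permutation p = 0.286). Tet2 CKO replicates 2 and 3 stood below 1 and the other 5 libraries above it. In those 2 libraries the lower flank had a density of 1.26 and 1.32, against 0.483 to 0.887 in the others. Without those 2 libraries the difference was −0.07, and 0.16 without WT replicate 1 as well. For the lengths of Bdnf, Ntrk2 and Ppp3ca, 4.75%, 4.39% and 4.56% of tiles were lower against their flanks in Tet2 CKO without overlap, and 4.32%, 4.84% and 5.04% were higher.

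**Figure D5:**
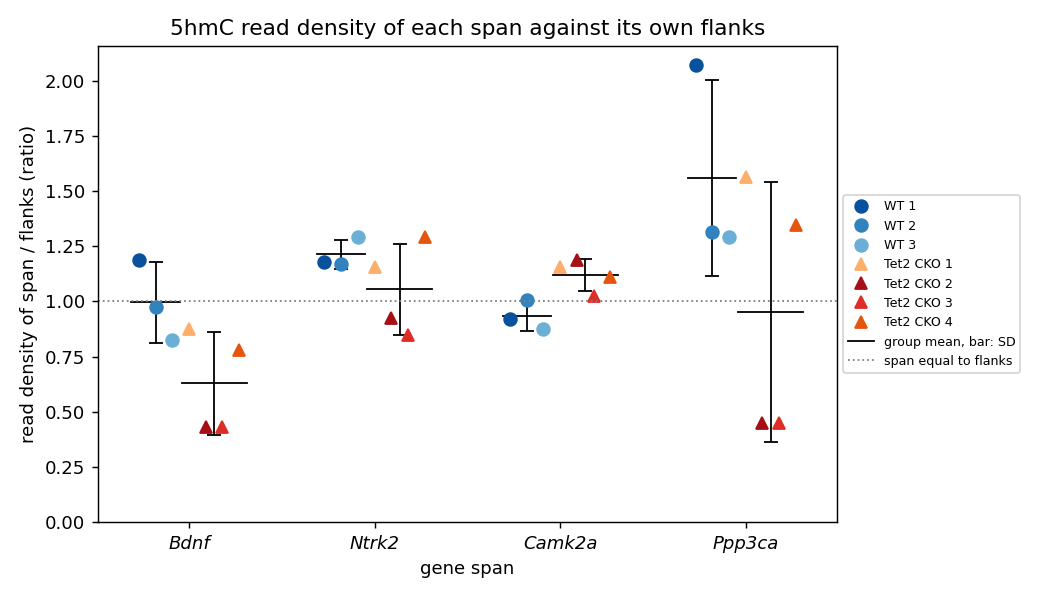
Ratio of the reads per covered bin in each span to those in its 2 flanks of the same length, 1 point per library, by genotype. The Camk2a points of the 2 genotypes do not overlap, and Tet2 CKO replicates 2 and 3 are lowest for Bdnf, Ntrk2 and Ppp3ca.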

How the data were processed

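Genomic DNA of mouse hippocampus was enriched for 5hmC with an antibody and sequenced, per the labels' protocols. The authors deposited raw read counts per 500 bp bin for 7 libraries, and the submitters' processing notes name Bowtie2, HOMER, DESeq2 and build mm9 without roles. The sources used here do not say how duplicate or multiply mapped reads were handled, and no input library was used. Samples were grouped by the genotype label. The 375 bins with a mean above 100 reads were left out, a bound set with the data known.

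Spans were tested with edgeR 4.0.16 in R 4.3.3 (quasi-likelihood, two-sided, Benjamini-Hochberg) among all autosomal tiles of their own length, and 10 kb windows, cut at the span edges, among all autosomal windows. Features needed a mean raw count of 10 or more. The library size was the autosomal reads outside high-count bins, because in earlier work on these files TMM factors changed with window length. The threshold was 0.05. The count models were tested on simulated data, with 50 features changed at each fold. In 10 kb windows, edgeR called 0 of 50 changes of 2-fold and 5 of 50 of 4-fold at the threshold. In tiles of the length of Bdnf it called 4 and 33 of 50, and of the length of Ntrk2 16 and 49. Most changes of 2-fold were thus missed, so the absence of a call does not show equal levels. Ratios to flanks were compared by an exact permutation test over 35 splits. The named windows of a span were those with the highest and lowest mean density among windows of 20 bins, the smallest unadjusted p in each direction, and any past the threshold.

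Same-numbered libraries deviated together over 226980 windows (r = 0.548, 0.298 and 0.341 for numbers 1 to 3, all above the criterion of 0.1), so fits with the number as a block are given. Some libraries of different numbers did so too (WT replicate 1 with Tet2 CKO replicate 4, r = 0.512, and WT replicate 2 with Tet2 CKO replicate 3, r = 0.284). WT replicate 3 had a higher r with Tet2 CKO replicate 2 (0.358) than with replicate 3. The check therefore does not single out pairs of the same number. Alternatives were other scalings, DESeq2 1.42.0, other filters and window lengths, left-out libraries, a covariate for the high-count share, wider spans and other flanks. The genes, spans and tests were chosen with earlier results of these data known.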

Additional observations from a re-analysis of the deposited data

How the results depend on the processing

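For the span tests, the log2 differences kept their direction and did not pass the threshold under every scaling, in DESeq2 and with all chromosomes. DESeq2 gave the same span values with its default and its local trend, so these are not separate checks. Scaling by all reads gave −0.62, −1.06, −0.89 and −0.74 for Bdnf, Ntrk2, Camk2a and Ppp3ca, with medians of all tiles at −0.47, −0.44, −0.46 and −0.44. Without one library at a time the ranges were −0.26 to −0.07, −0.93 to −0.47, −0.77 to −0.23 and −0.67 to −0.18. Direction reversed without Tet2 CKO replicates 2 and 3 (Bdnf 0.072, Camk2a 0.065, Ppp3ca 0.16), without WT replicate 1 and those 2 (0.012, 0.32 and 0.16), with the high-count share as a covariate (Camk2a 0.19, Ppp3ca 0.072, with Ntrk2 at −0.12 and Bdnf at −0.020, not reversed) and with the Bdnf span extended by 10 kb (0.075). The replicate block brought Ntrk2 (−1.10), Camk2a (−0.81) and Ppp3ca (−0.78) past the threshold and moved the windows called from 0 to 14. It left Bdnf without a call. In the ratio to flanks, Camk2a reached 0.32 with 50 kb flanks, Ntrk2 was 0.013 without Tet2 CKO replicates 2 and 3, and Ppp3ca was 0.16 without WT replicate 1 as well. For the ratios the replicate block was a test by sign changes of the 3 pairs. Its smallest p is 0.25, so it could make no call, and the values were −0.85, −0.32, 0.27 and −1.16.

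For named windows, scaling by all reads gave −0.35 and −0.56 for the Bdnf windows at 26 and 36 kb, −0.056 for that of Ntrk2 at 293 kb and −0.11 for that of Ppp3ca at 17 kb. Keeping high-count bins gave −0.34, −0.56, −0.053 and −0.11. The covariate gave −0.10 and −0.49 for the Bdnf windows, 0.21 and −0.23 for Ntrk2 at 203 and 293 kb, 0.51 for Camk2a at 45 kb and 0.31 for Ppp3ca at 167 kb. Without Tet2 CKO replicates 2 and 3, values were −0.60 (Bdnf, 36 kb), 0.10 and −0.20 (Ntrk2, 203 and 293 kb), 0.26 (Camk2a, 45 kb) and 0.037 (Ppp3ca, 167 kb). Without WT replicate 1 as well they were −0.56, 0.27, −0.35, 0.66 and 0.38, and −0.14 for Bdnf at 26 kb. Leaving out single libraries gave −0.035 to 0.30 and −0.15 to 0.38 for the Bdnf windows and −0.45 to 0.16 for Camk2a at 45 kb. The cause was not tested. Bdnf had 109 to 348 reads per library, the fewest of the 4 spans.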
